A study of Mus musculus with 6 samples.

Results

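The replication-dependent histone genes were taken as every row of the count table whose symbol begins with Hist1h, Hist2h, Hist3h or Hist4h followed by the number of a histone class. This gave 68 of 24062 symbols, of which 54 belong to the Hist1 cluster, 10 to Hist2, 3 to Hist3 and 1 to Hist4. By class, 6 encode H1, 18 encode H2A, 19 H2B, 12 H3 and 13 H4, and 1 of the H2B rows (Hist3h2bb-ps) is annotated as a pseudogene. RNA came from Kit-positive bone marrow cells of C57BL/6 mice, a sorted population of blood stem and progenitor cells, with 1 mouse per library. The 3 knockout (KO) libraries are from mice with the Mx1Cre transgene and flox alleles of Ints11, whose Cre is switched on by interferon in blood and other cells. The 3 wild-type (WT) libraries are from littermates. Cells of either genotype were sorted 4 days after poly(I:C), an RNA mimic that induces interferon, so both groups share that exposure. Whether the WT mice carried Mx1Cre was not given in the sources used here. Libraries are named by genotype and mouse number, and values are listed below in the order WT_341, WT_343, WT_344, then KO_339, KO_340, KO_345.

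Replication-dependent histone genes supply the proteins that package newly made DNA, and they are transcribed in S phase from clusters with many near-identical copies. H2A, H2B, H3 and H4 form the nucleosome core, and H1 proteins bind the linker DNA between nucleosomes. Their messenger RNAs are the only known metazoan messenger RNAs that normally end in a conserved stem-loop in place of a poly(A) tail. The stem-loop is bound by SLBP, and the end is cut by CPSF3 (CPSF73) together with the U7 small nuclear ribonucleoprotein. INTS11, encoded by Ints11 (listed under its older symbol Cpsf3l), is a paralog of CPSF3 and the endonuclease of Integrator, which cuts the ends of small nuclear RNAs. Histone transcripts with poly(A) tails are also known, above all in cells that leave the cell cycle. The libraries were made with a kit for messenger RNA, so the counts are not a measure of all histone messenger RNA.

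The stem-loop motif (GG, 2 free bases, CTT, 1 free base, T, 1 free base, AG, 2 free bases and CC, sense strand) was found in the GENCODE transcripts of 46 of the 68 genes. These sequences are shown because they are the feature that sets this gene family's messenger RNAs apart, with the 16 bases of the motif in capitals and 5 bases on each side.
Hist1h1c: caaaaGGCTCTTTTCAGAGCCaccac
Hist1h3d: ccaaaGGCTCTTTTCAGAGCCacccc
Hist1h2bb: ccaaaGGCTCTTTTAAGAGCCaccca
Hist1h4d: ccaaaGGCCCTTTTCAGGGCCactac
Hist1h4i: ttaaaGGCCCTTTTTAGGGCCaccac
Hist2h4: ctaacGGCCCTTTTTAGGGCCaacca
Hist1h4b: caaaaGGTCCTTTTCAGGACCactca
The form of Hist1h1c and Hist1h3d was present in 26 members, all of class H1, H2A, H2B or H3. The form of Hist1h2bb was present in 6 members of H1, H2B and H3. The form of Hist1h4d was present in 7 genes, all H4, and that of Hist1h4b in 2 H4 genes. The form of Hist1h4i and Hist2h4 was present in those 2 genes alone among the 46. A GENCODE model without the motif need not mean a gene without it, as some such models are shorter than the RefSeq span. That of Hist1h4k has 312 bases against 409, and that of Hist1h2bl 381 against 473.

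Promoters of 62 of the 68 genes were matched in RefSeq (GRCm38.p6, 300 bases from 250 before to 50 after the annotated start). A CCAAT box (CCAAT, either strand) was present in 53 of the 62 (85.5%), against 37.4% of all 32851 promoters. All matched H1, H2A, H2B and H3 promoters held one, and 3 of 12 H4 promoters did (25%). The TATA box sequence (TATAAA, either strand, anywhere in the 300 bases) was present in 35 of 62 (56.5%, against 13.6% of all promoters). No distance from the start was required, so a match need not be the gene's own TATA box, and that of Hist1h4i lies far before the start. The octamer ATTTGCAT, on either strand, was present in 14 of 62 (22.6%, against 1.74%), 7 of 18 H2A and 7 of 16 H2B promoters. These matches are a description of the letters and not of bound factors. The promoter of Hist1h2bl (chr13:21716134-21716433, minus strand) is shown because it is shared with the divergent gene Hist1h2ai, and that of Hist1h4i (chr13:22041313-22041612, minus strand) because it had the largest change and no CCAAT box. The CCAAT and TATAAA matches are in capitals.
Hist1h2bl: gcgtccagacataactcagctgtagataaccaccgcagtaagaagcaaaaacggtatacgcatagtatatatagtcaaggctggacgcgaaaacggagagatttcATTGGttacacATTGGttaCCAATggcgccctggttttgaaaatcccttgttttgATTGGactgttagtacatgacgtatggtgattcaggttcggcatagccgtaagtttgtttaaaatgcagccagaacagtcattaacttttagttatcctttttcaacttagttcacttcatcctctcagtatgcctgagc
Hist1h4i: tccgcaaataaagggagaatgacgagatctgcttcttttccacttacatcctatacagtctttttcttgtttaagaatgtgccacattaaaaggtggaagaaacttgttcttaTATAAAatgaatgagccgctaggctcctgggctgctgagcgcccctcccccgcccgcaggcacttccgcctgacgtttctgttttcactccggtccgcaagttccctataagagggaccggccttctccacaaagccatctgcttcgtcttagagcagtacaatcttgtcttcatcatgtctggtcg

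Library totals ranged from 124074531 to 166860739 counts, so counting error was small beside the spread between mice. The targeted gene Cpsf3l was at 73.8, 92.3 and 78.9 counts per 1000000 (CPM) in WT and 64.3, 58.3 and 60.2 in KO, a log2 change of -0.42 ± 0.10 (SE; edgeR quasi-likelihood test with Benjamini-Hochberg adjustment, adjusted p = 0.017). Its call was lost without KO_340 (adjusted p = 0.056) or KO_345 (0.054). Kit was at 199 to 221 CPM in WT and 220 to 238 in KO. Of 8 progenitor markers 5 rose and 0 fell, where 16% of all genes were called higher and 19.9% lower. The sum of these 8 was 1085 to 1196 CPM in WT and 1093 to 1198 in KO. Of 11 mature neutrophil markers, 4 rose and 0 fell, with none at 0, and their sum was 11423 to 36229 CPM in WT and 43736 to 57430 in KO. Of 7 erythroid markers 0 rose and 1 fell, with sums of 427 to 649 CPM in WT and 392 to 480 in KO. Of 6 B cell markers edgeR called 0 (0 at an unadjusted p under 0.05, 1 higher with DESeq2 and 0 with limma-voom), with sums of 24.5 to 70.7 and 44.1 to 72.2 CPM. Of 6 T and NK cell markers 2 rose and 1 fell, and 5 log2 changes were above 0, while the sums were 267 to 299 and 207 to 226 CPM. Of 6 macrophage markers 1 rose and 0 fell, and 4 log2 changes were below 0, while the sums were 299 to 470 and 415 to 601 CPM. Counts of Xist and Y-linked genes put WT_341, KO_339 and KO_340 with males and the other libraries with females.

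Most of the histone genes had log2 changes above 0, but few of the differences exceeded the spread between mice. Of the 57 genes that passed the filter on low counts, 5 rose (Hist1h4i, Hist1h2bl, Hist2h4, Hist1h1c and Hist1h3d) and 2 fell (Hist1h1b and Hist2h2bb). The other 50 did not pass the test. Over all 15742 genes tested, 35.9% were called, 16% higher and 19.9% lower. The share of histone genes called was thus below the background, although 49 of 57 log2 changes were above 0 (51% of all genes). The median log2 change was 0.41 for the histone genes and 0.01 for all genes. The median SE was 0.26 for the histone genes and 0.15 for all genes. At an unadjusted p under 0.05, 14 histone genes were higher and 3 lower, where 48.2% of all genes passed. Genotypes did not overlap for 7 histone genes, 5 with all KO libraries above and 2 with all below, and these were the 7 called genes. Over all genes, 25.6% were above and 28.4% below without overlap.

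The sum over the 68 genes was 7769, 8092 and 11533 CPM in WT and 11464, 12358 and 9668 CPM in KO (9131 ± 2086 and 11164 ± 1370, SD, n = 3 each), a ratio of 1.22. WT_344 lay between the KO libraries, so the genotypes overlapped. In bulk RNA, more cells of a type and more RNA per cell cannot be told apart.

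**Figure D1:**
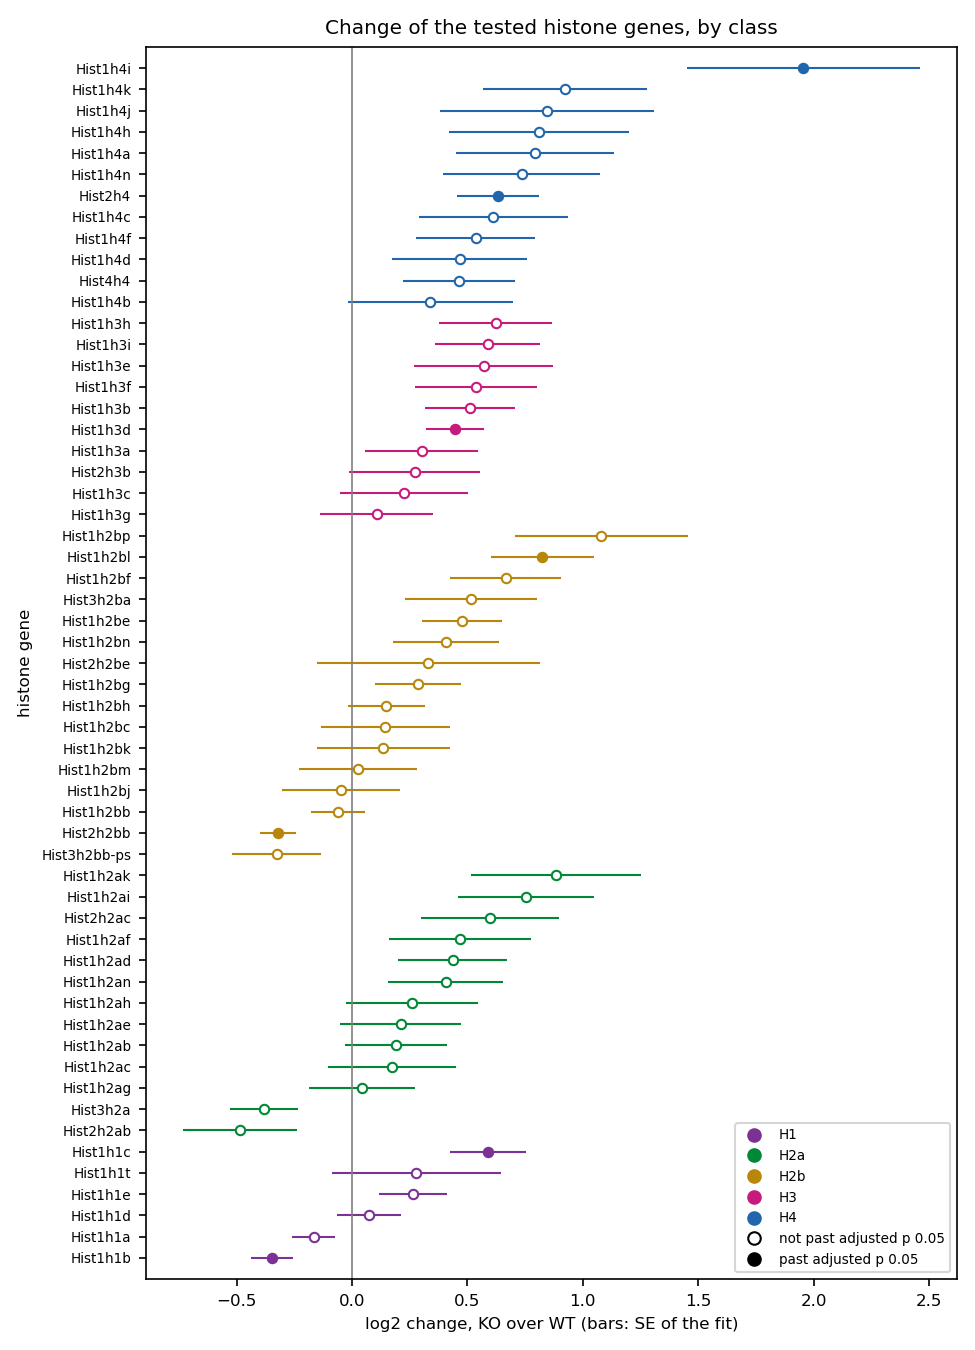
Fitted log2 change of each tested histone gene (x axis, KO over WT, bars are the SE of the fit), grouped by class with H4 at the top and H1 at the bottom. Filled points passed an adjusted p of 0.05. All 12 H4 and 10 H3 points lie to the right of 0, and 5 filled points lie to the right and 2 to the left.

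H4 genes had the highest median change of the 5 classes. H4 forms a tetramer with H3 at the centre of the nucleosome. All 12 tested H4 genes had log2 changes above 0, from 0.34 to 1.96 with a median of 0.68, and 2 of them rose. The summed H4 level was 1127, 1399 and 2611 CPM in WT and 2613, 3152 and 2309 CPM in KO, a ratio of 1.57. WT_341 and WT_343 lay below all KO libraries, and WT_344 lay above KO_345. Within WT, the median ratio of the highest to the lowest library was 2.59 for H4 genes and 1.94 for all tested histone genes.

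Hist1h4i (H4c9, chromosome 13, 22040636 to 22041362, minus strand) was at 38.9, 13.2 and 26.4 CPM in WT and 116, 145 and 43.7 in KO. All KO libraries lay above all WT libraries, but KO_345 was far nearer to WT_341 than to KO_339. The change was 3.88-fold (log2 1.96 ± 0.51, adjusted p = 0.023), and its call was lost without any single library except KO_345 (adjusted p from 0.061 to 0.078). With no filter on low counts the call of Hist1h4i was lost too. Hist2h4 (H4c14, chromosome 3, 96261682 to 96263311, minus strand) was at 92.2, 84.7 and 136 CPM in WT and 169, 173 and 144 in KO. WT_344 was close below KO_345. The change was 1.55-fold (log2 0.63 ± 0.18, adjusted p = 0.031), and its call was lost without any single library except WT_344 (adjusted p from 0.055 to 0.090).

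Other H4 genes had log2 changes nearer to that of Hist2h4 than to that of Hist1h4i, and their genotypes overlapped. Hist1h4k was at 78.5, 102 and 212 CPM in WT and 235, 309 and 201 in KO (log2 0.92 ± 0.36, adjusted p = 0.078). Hist1h4d was at 268, 367 and 644 CPM in WT and 588, 657 and 520 in KO (log2 0.47 ± 0.29, adjusted p = 0.24). Hist1h4f was at 206, 234 and 424 CPM in WT and 408, 464 and 380 in KO (log2 0.54 ± 0.26, adjusted p = 0.14). Each of these genes had WT_344 among the KO values and the other WT libraries below all KO values. Hist1h4c had the same arrangement, at 122, 201 and 338.9 CPM in WT and 307, 375 and 330 in KO (log2 0.61 ± 0.32, adjusted p = 0.17). Hist4h4, the lone Hist4 gene, was at 58.7, 69.6 and 116 CPM in WT and 107, 130 and 100 in KO (log2 0.46 ± 0.24, adjusted p = 0.17).

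H3 genes followed, with all 10 tested members above 0 (0.11 to 0.62, median 0.48) and 1 that rose. The summed H3 level was 711, 863 and 1315 CPM in WT and 1368, 1554 and 1030 in KO, a ratio of 1.37 with WT_344 above KO_345. Hist1h3d (H3c4, chromosome 13, 23575763 to 23577011, plus strand) was at 78.8, 81.8 and 98.5 CPM in WT and 122, 131 and 101 in KO. KO_345 was just above WT_344. The change was 1.36-fold (log2 0.45 ± 0.13, adjusted p = 0.030), and its call was lost without WT_343 (adjusted p = 0.080), KO_339 (0.083) or KO_340 (0.077). The largest H3 changes were in Hist1h3h and Hist1h3i, which did not pass. Hist1h3h was at 38.7, 44.8 and 68.8 CPM in WT and 85.2, 91.5 and 58.0 in KO (log2 0.62 ± 0.24, adjusted p = 0.082). Hist1h3i was at 63.7, 68.8 and 108 CPM in WT and 125, 142 and 94.0 in KO (log2 0.59 ± 0.23, adjusted p = 0.078). Among the H3 genes with the most counts, Hist1h3e was at 104, 147 and 243 CPM in WT and 245, 296 and 192 in KO (log2 0.57 ± 0.30, adjusted p = 0.17).

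No H2A gene passed the edgeR test: of 13 tested, 0 rose and 0 fell, with 2 higher and 1 lower at an unadjusted p under 0.05. DESeq2 called 2 of 15 higher and limma-voom 0 of 13, where they called 33.7% and 36.7% of all genes in either direction. H2A pairs with H2B in the outer dimers of the nucleosome. The median log2 change was 0.26, with 11 genes above 0. The summed H2A level was 490, 451 and 839 CPM in WT and 760, 931 and 611 in KO, a ratio of 1.29. Hist1h2ak had the largest change, at 65.7, 68.9 and 167.3 CPM in WT and 176, 234 and 147 in KO (log2 0.88 ± 0.37, adjusted p = 0.097). Hist1h2ai was at 26.1, 27.4 and 50.02 CPM in WT and 59.1, 73.7 and 41.6 in KO (log2 0.75 ± 0.30, adjusted p = 0.082). In each, KO_345 was below WT_344. Hist3h2a had lower values in KO, at 93.7, 75.2 and 114 CPM in WT and 71.7, 78.1 and 67.0 in KO (log2 -0.38 ± 0.15, adjusted p = 0.078), and its GENCODE model overlaps Trim17 on the same strand.

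Of 16 H2B genes tested, 1 rose and 1 fell, 12 were above 0, and the median was 0.22. The summed H2B level was 2240, 2540 and 3224 CPM in WT and 3020, 3084 and 2610 in KO, a ratio of 1.09. Hist1h2bl (H2bc13, chromosome 13, 21715763 to 21716143, minus strand) was at 76.1, 70.0 and 110.8 CPM in WT and 166.8, 177 and 111.1 in KO. KO_345 was only just above WT_344. The change was 1.77-fold (log2 0.82 ± 0.22, adjusted p = 0.027), and its call was lost without WT_341 (adjusted p = 0.097), WT_343 (0.088), KO_339 (0.086) or KO_340 (0.076). With no filter on low counts the call of Hist1h2bl was lost too.

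Hist2h2bb (H2bc18, chromosome 3, 96269752 to 96270132, plus strand) fell. It was at 687, 653 and 692 CPM in WT and 559, 548 and 520 in KO, so the genotypes lay well apart. It fell by 0.32 ± 0.08 on the log2 scale (adjusted p = 0.019). The call was lost without WT_344 (adjusted p = 0.067) or any KO library (0.077 to 0.086), and with upper-quartile factors or library totals. Its GENCODE model overlaps the long noncoding RNA Gm42743 on the same strand, and the reads of such overlapping genes cannot be told apart. Hist1h2bp had the largest H2B change without passing, at 31.7, 14.7 and 18.4 CPM in WT and 54.7, 57.3 and 24.96 in KO (log2 1.08 ± 0.38, adjusted p = 0.058). Hist1h2bn was at 184, 287 and 378 CPM in WT and 376, 357 and 392 in KO (log2 0.41 ± 0.23, adjusted p = 0.19). Hist1h2bb was at 349, 352 and 407 CPM in WT and 384, 376 and 301 in KO (log2 -0.06 ± 0.12, adjusted p = 0.70).

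H1 genes, which encode linker histones, split by gene. The median of the 6 was 0.17, the summed level 3201, 2839 and 3543 CPM in WT and 3703, 3637 and 3107 in KO, and the ratio 1.09. Hist1h1c (H1f2, chromosome 13, 23738808 to 23740367, plus strand) was at 639, 564 and 830 CPM in WT and 1104, 1088 and 868 in KO. All KO libraries were above WT, with KO_345 close to WT_344. It rose 1.51-fold (log2 0.59 ± 0.16, adjusted p = 0.029). The call was lost without WT_341 (adjusted p = 0.050, just past the threshold), WT_343 (0.070), KO_339 (0.094) or KO_340 (0.080). Hist1h1b (H1f5, chromosome 13, 21779883 to 21780625, minus strand) was at 754, 639 and 711 CPM in WT and 578, 546 and 530 in KO, with no overlap. It fell by 0.35 ± 0.09 on the log2 scale (adjusted p = 0.025). The call was lost without WT_344 (adjusted p = 0.077) or any KO library (0.091 to 0.12), and with upper-quartile factors, library totals or a filter of 1 CPM in 3 libraries. Hist1h1d and Hist1h1e did not pass (log2 0.07 ± 0.14 and 0.26 ± 0.15, adjusted p = 0.70 and 0.19). The model of Hist1h1e overlaps that of Hist1h2be on the same strand.

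**Figure D2:**
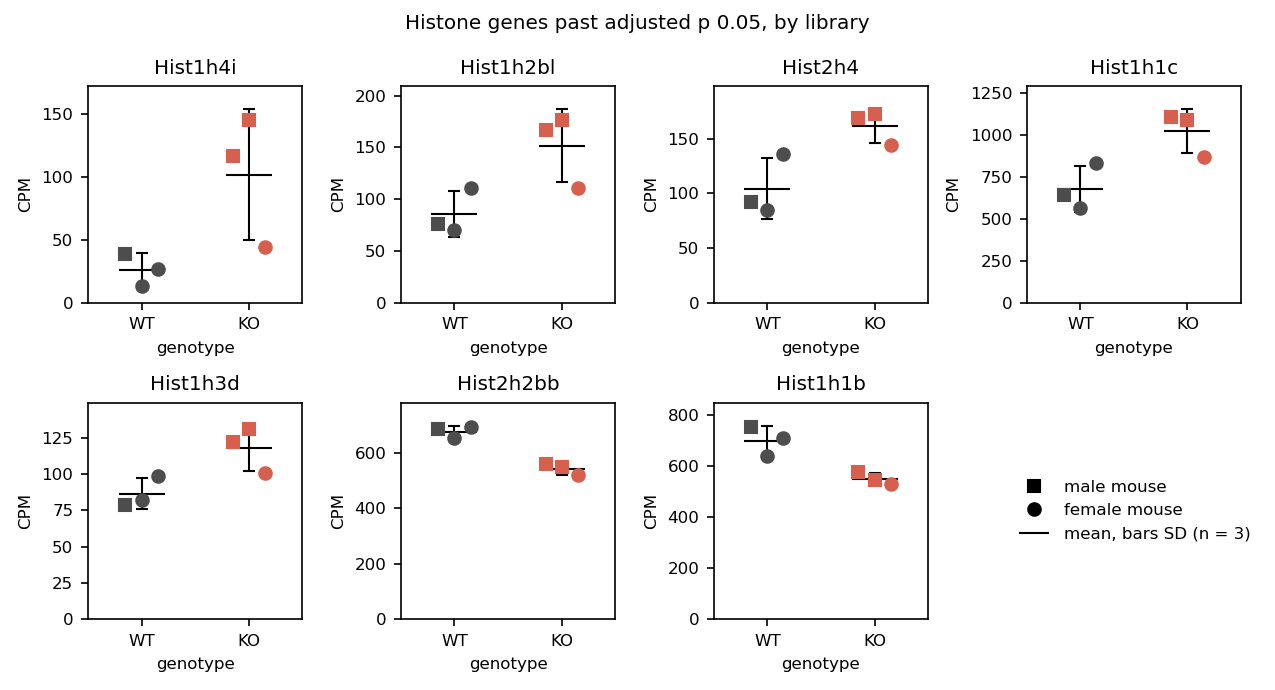
CPM of the 7 called histone genes by library, with WT in grey and KO in red, squares for male and circles for female mice, and the mean with SD bars (n = 3 per genotype). Hist1h4i ranged from 13.2 to 38.9 CPM in WT and from 43.7 to 145 in KO, and Hist2h2bb from 653 to 692 in WT and from 520 to 559 in KO.

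By cluster, the median log2 change was 0.44 for the 47 tested Hist1 genes on chromosome 13 (4 rose, 1 fell), 0.30 for 6 Hist2 genes (1 rose, 1 fell), -0.33 for 3 Hist3 genes (0 called by edgeR, DESeq2 or limma-voom, 1 lower at an unadjusted p under 0.05) and 0.46 for the single Hist4 gene (not called by any of these). Summed levels gave KO over WT ratios of 1.26 for Hist1, 0.96 for Hist2, 0.79 for Hist3 and 1.38 for Hist4. The Hist2 sum was mostly H2B, above all Hist2h2bb (mean 686 of 896 CPM in WT for H2B, ratio 0.81). Hist2 genes of H2A, H3 and H4 had ratios of 1.39, 1.21 and 1.55. The Hist3 sum was mostly Hist3h2a (mean 94.2 of 107 CPM in WT), and the Hist3 median was the value of the pseudogene Hist3h2bb-ps. Of the Hist3 genes, Hist3h2ba was at 3.97, 1.81 and 2.63 CPM in WT and 4.18, 4.35 and 3.48 in KO (log2 0.51 ± 0.29), and Hist3h2bb-ps had a log2 change of -0.33 ± 0.19. Within Hist1, gaps of over 100000 bases separate 4 blocks. The block nearest the start of the chromosome coordinates, which holds Hist1h2bl, Hist1h2bp and Hist1h1b, had a median of 0.73 over 13 tested genes. The next block had 0.14 over 5 genes and the third 0.34 over 29, and the last had no tested gene.

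Many H2A and H2B genes lie head to head and share the stretch between their starts. There were 14 divergent pairs of members with starts at most 1000 bases apart, and in 11 both genes were tested. Log2 changes had the same sign in 10 of these. With 49 of 57 tested members above 0, most pairs would share a sign whatever their pairing. Hist1h2bl and Hist1h2ai, 278 bases apart, changed by 0.82 and 0.75. Hist1h2bp and Hist1h2an, 242 bases apart, changed by 1.08 and 0.41. The tested pair with opposite signs was Hist1h2bj (-0.05 ± 0.26) and Hist1h2ag (0.04 ± 0.23), and neither change exceeded its SE. Pairs share libraries, and nearby copies can share reads, so these counts are a description.

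WT_344 was high and KO_345 low within its genotype for most of the family, while the lowest WT library was WT_341 for 34 genes and WT_343 for 23. WT_344 was the highest WT library for 48 of 57 histone genes, where it was the highest for 23.0% of all tested genes. KO_345 was the lowest KO library for 52 of 57, against 38.6% of all genes, and KO_340 was the highest for 47. By class, WT_344 was the highest WT library in 3 of 6 H1, 12 of 13 H2A, 12 of 16 H2B, 10 of 10 H3 and 11 of 12 H4 genes. All KO libraries were above both WT_341 and WT_343 for 36 genes, while WT_344 reached the lowest KO library or exceeded it for 49 and exceeded all KO libraries for 17.

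**Figure D3:**
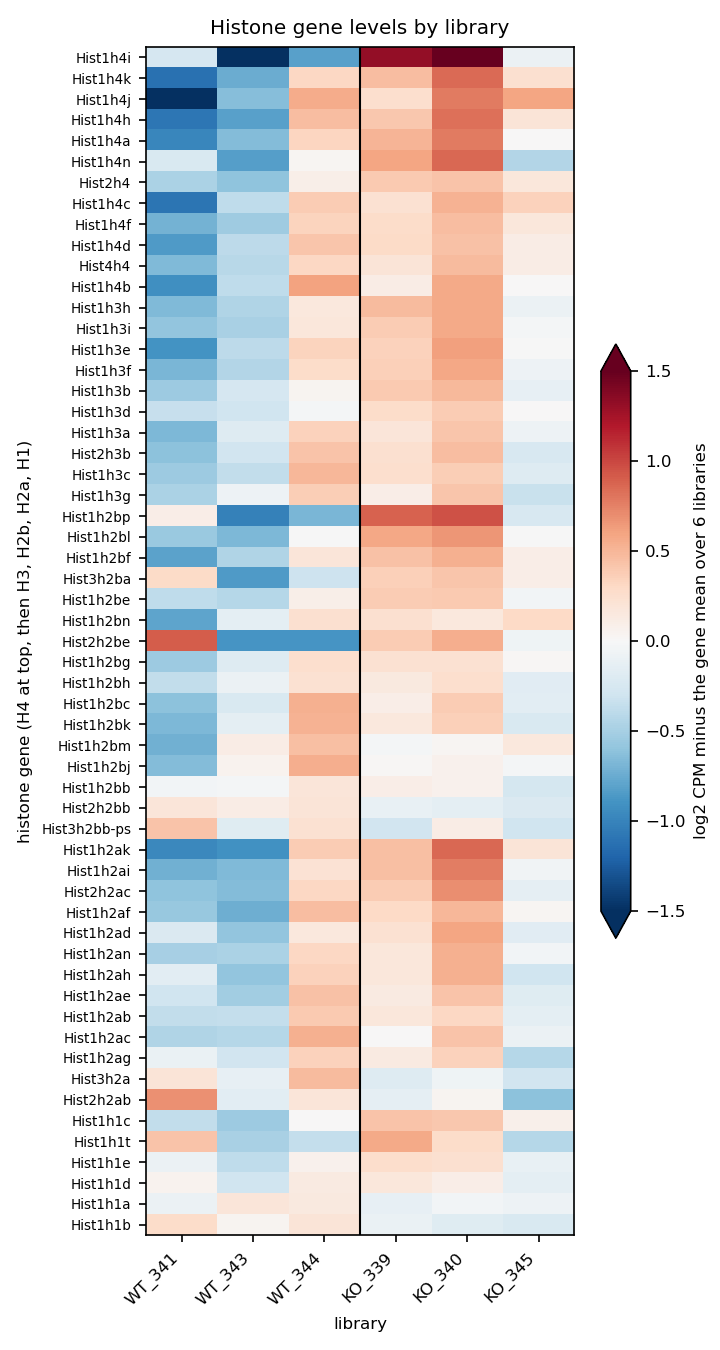
Log2 CPM of the 57 tested histone genes minus each gene's mean over the 6 libraries, with libraries in columns and genes in rows from H4 at the top to H1 at the bottom. WT_341 and WT_343 are mostly below the mean (blue), and WT_344 is mostly above it (red), being the highest WT library for 48 genes.

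Calls depended on WT_344. It was the highest WT library for most of the family, so leaving it out raises most of the log2 changes by construction. Without WT_344, 25 of 58 tested histone genes rose and 0 fell, with a median log2 change of 0.65, while 20.4% of all genes were called (8.92% higher and 11.5% lower). Those that rose were 10 of 12 H4, 5 of 10 H3, 5 of 14 H2A, 4 of 16 H2B and 1 of 6 H1 genes, and 4 of the 7 genes called with all libraries were among them. With all libraries, the H4 medians and calls were 0.68 and 2, and without WT_344 they were 0.99 and 10. Leaving out another library gave 5 higher and 3 lower (WT_341), 0 and 3 (WT_343), 1 and 0 (KO_339), 0 and 0 (KO_340) and 8 and 0 (KO_345). In the same order, 48.7%, 25.8%, 14.5%, 20.6% and 18.6% of all genes were called in either direction. For the fits with 0 higher, edgeR gave 6 higher histone genes without WT_343 and 5 without KO_340 at an unadjusted p under 0.05, where 41.7% and 40.5% of all genes passed in either direction.

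WT_344 was also the highest WT library for RNAs that carry no poly(A) tail. Rpph1, the RNA of ribonuclease P, was at 1907, 2817 and 4336 CPM in WT and 4147, 5686 and 4332 in KO. Rmrp, the RNA of the related ribonuclease MRP, was at 1315, 1476 and 2322 CPM in WT and 2257, 2545 and 1877 in KO. Rn45s, the ribosomal RNA precursor, was at 16543, 11861 and 30611 CPM in WT and 18241, 24302 and 27759 in KO. None of these 3 passed the test (adjusted p = 0.12, 0.21 and 0.59), and for each WT_344 lay among or above the KO libraries. H2afx, a variant histone gene known to make transcripts with either kind of end, was at 101, 102 and 160 CPM in WT and 162, 194 and 155 in KO.

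The mean log2 CPM of Rpph1, Rmrp and Rn45s was 11.8, 11.8 and 12.7 in WT and 12.4, 12.8 and 12.6 in KO. These RNAs were chosen after seeing the data, when WT_344 was known to be high for them as for the histone genes, so a fit with their mean as a covariate takes up that shared pattern by construction and is a description, not a test. In it, edgeR called 0 of 57 histone genes higher and 0 lower, where 6.56% of all genes were called (2.6% higher and 3.96% lower). At an unadjusted p under 0.05, 2 were higher and 3 lower in that fit, against 34.7% of all genes. The median log2 change of the histone genes became 0.12, with 0.20 for H4 and 0.13 for H3. The median SE of the histone genes was 0.18 in that fit and 0.26 without the covariate, while that of all genes was 0.19 and 0.15. The part of these RNAs in the histone values was not tested.

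**Figure D4:**
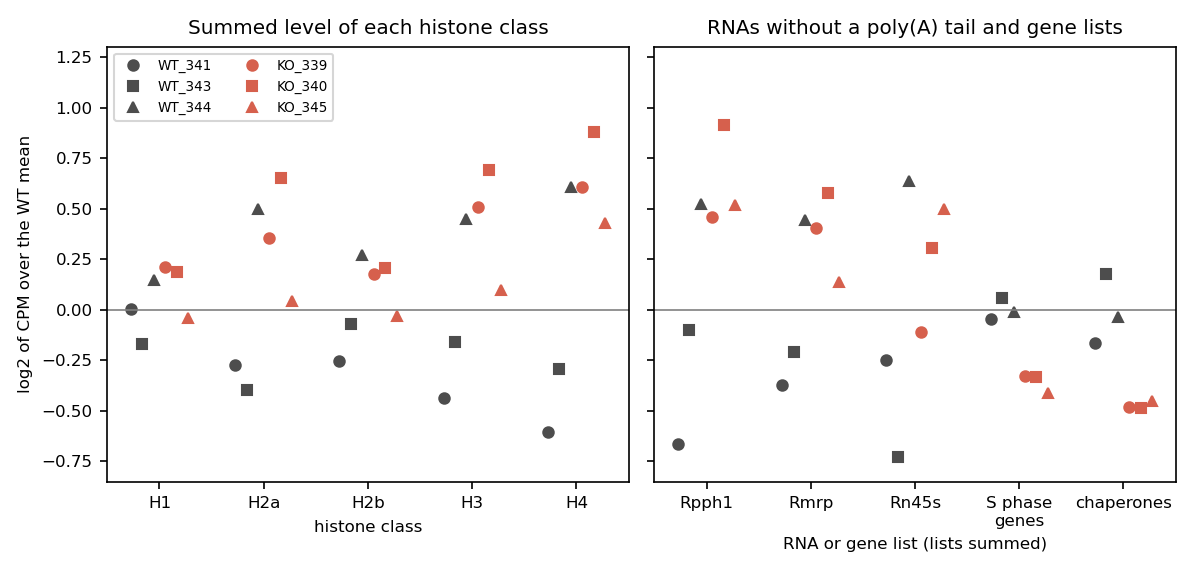
Left, the summed CPM of each histone class per library as log2 over the WT mean, with WT in grey and KO in red and a marker for each mouse. Right, the same for Rpph1, Rmrp, Rn45s and the summed S phase and chaperone lists. WT_344 (grey triangle) lies with the KO libraries for H4, Rpph1 and Rmrp, and with the other WT libraries for the 2 lists.

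The neutrophil markers moved with genotype too, with a mean log2 CPM of 10.1, 8.44 and 9.36 in WT and 10.8, 10.4 and 10.4 in KO. WT_344 was not the highest WT library for them. With that mean as a covariate, edgeR called 0 histone genes higher and 2 lower, where 7.97% of all genes were called (2.97% higher and 5.01% lower), and at an unadjusted p under 0.05 there were 0 higher and 5 lower (28.8% of all genes). The histone median was 0.41 as before, and the median SE was 0.49. DESeq2 and limma-voom were not run with a covariate. With sex as a covariate, 2 histone genes rose and 3 fell (34.4% of all genes called, 17.1% higher and 17.3% lower). The calls of Hist1h1c (adjusted p = 0.055), Hist1h2bl (0.081), Hist1h3d (0.059) and Hist2h4 (0.061) were lost in that fit, those of Hist1h4i, Hist1h1b and Hist2h2bb were kept, and Hist1h2bp (0.0092, higher) and Hist2h2ab (0.014, lower) were gained. Males were 2 of the 3 KO and 1 of the 3 WT mice.

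For the sex term itself, no histone gene passed the adjusted threshold (0.0381% of all genes did). At an unadjusted p under 0.05 there were 8, where 12.6% of all genes passed, and 6 of these were higher in males. The smallest p was that of Hist1h2bp (log2 1.05 ± 0.12 male over female, adjusted p = 0.096). Hist1h4i had 1.28 ± 0.32 (adjusted p = 0.28). The 2 KO libraries with the highest Hist1h4i and Hist1h2bp levels were both male, as was the highest WT library.

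Near-identical copies limit what counts of single genes can show. For 28 of 68 members, under 50% of the 75-base windows of their transcripts were found in no other gene's transcripts. How reads that map to several places were counted was not given in the sources used here. Of the 11 genes not tested, 7 were at 0 in all libraries (Hist1h2ao, Hist1h2ap, Hist1h2bq, Hist1h2br, Hist2h2aa1, Hist2h3c1 and Hist2h3c2), and 0% to 37.4% of their windows were unique. The other 4 (Hist1h2aa, Hist1h2ba, Hist1h4m and Hist2h2aa2) had at most 24 counts in a library. The 38 tested genes with at least 50% unique windows had a median log2 change of 0.32 with 4 higher and 2 lower, and the 19 others had 0.47 with 1 higher and 0 lower. For H4 the medians were 0.62 over 10 genes and 0.83 over 2. Of the called genes, Hist1h2bl had 26.7% unique windows and shared most with Hist1h2bq and Hist1h2br, so its value is uncertain, while Hist1h4i had 77.6% and Hist2h4 100%.

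GENCODE models of 23 members run more than 100 bases past the stem-loop, where a tail would be added. Of the 21 tested among these, 4 rose (Hist1h4i, Hist2h4, Hist1h1c and Hist1h3d) and 0 fell, with a median of 0.47, and 12 of 21 rose without WT_344. Over all genes, 16% were called higher with all libraries and 8.92% without WT_344. Of 18 tested genes whose models end near the stem-loop, edgeR with all libraries called 0 in either direction (3 higher and 0 lower at an unadjusted p under 0.05), with a median of 0.32. DESeq2 called 4 of 20 of these higher and limma-voom 0 of 18, and without WT_344 edgeR called 5 of 19 higher. Of all genes, DESeq2 called 33.7% and limma-voom 36.7% in either direction. Of 18 whose models hold no stem-loop, 1 rose and 2 fell (Hist1h2bl, and Hist1h1b and Hist2h2bb), with a median of 0.37, and 8 rose and 0 fell without WT_344. Some of these models are shorter than the RefSeq span, so the lack of a motif need not be a trait of the gene. WT_344 was the highest WT library for most histone genes, so leaving it out raises most of their changes by construction. Without WT_343 or KO_340, edgeR called 0 of all members higher. Differences between the kinds of model were not tested. Gene counts do not tell transcripts with a tail from those without.

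Of 30 tested genes in a list of factors that make or degrade histone messenger RNA, 2 rose and 8 fell. The median log2 change was -0.16, and 20 did not pass the test. The list also holds Cpsf3l, the gene targeted in the KO, and its fall (log2 -0.42) is among the 8. Over all genes, 35.9% were called, 16% higher and 19.9% lower. Cpsf3, the endonuclease of this reaction, was at 114, 136 and 123 CPM in WT and 86.6, 86.9 and 84.4 in KO (log2 -0.53 ± 0.08, adjusted p = 0.0051). Cstf2, a subunit of the cleavage stimulation factor, fell by 0.58 ± 0.10 and its paralog Cstf2t rose by 0.52 ± 0.07 (adjusted p = 0.0072 and 0.0034). Nelfe, a subunit of the negative elongation factor, fell by 0.49 ± 0.09 (adjusted p = 0.0088). Slbp, the stem-loop binding protein, was at 158, 151 and 146 CPM in WT and 144, 136 and 121 in KO and did not pass (log2 -0.18 ± 0.08, adjusted p = 0.12). The U7 RNA gene Rnu7 is listed at 0 in all libraries. The 8 falls became 15 without WT_341, 4 without WT_344, KO_339 or KO_340, and 3 without KO_345. The 2 rises became 1 without any single library other than WT_341. Of all genes, 48.7% were called in either direction without WT_341 and 25.8% without WT_343. That share was 20.4%, 14.5%, 20.6% and 18.6% without WT_344, KO_339, KO_340 and KO_345.

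Of 29 S phase genes, 0 rose and 20 fell (0 and 22 at an unadjusted p under 0.05, 0 and 20 with DESeq2), with a median of -0.39. DESeq2 called 33.7% of all genes in either direction. The edgeR shares of all genes were 16% higher and 19.9% lower. Mcm7, a subunit of the replicative helicase, was at 461, 510 and 485 CPM in WT and 300, 291 and 288 in KO (log2 -0.73 ± 0.07, adjusted p = 0.0023). Cdc6, a loader of that helicase, fell by 0.78 ± 0.08, Rrm2, a ribonucleotide reductase subunit, by 0.54 ± 0.07, and Tk1, thymidine kinase, by 0.65 ± 0.08 (adjusted p = 0.0024, 0.0034 and 0.0033). The 20 falls became 13 without KO_339 and 12 without KO_345, and 1 S phase gene rose without WT_341. In these fits 14.5%, 18.6% and 48.7% of all genes were called in either direction. WT_344 was near the other WT libraries for the summed list (5954, 6404 and 6098 CPM in WT, 4898, 4893 and 4621 in KO).

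Of 26 histone chaperones and related factors, 0 rose and 17 fell (0 and 18 at an unadjusted p under 0.05, 0 and 18 with DESeq2), with a median of -0.36. DESeq2 called 33.7% of all genes in either direction. The edgeR shares of all genes were 16% higher and 19.9% lower. Nasp, a chaperone of H1 and of H3 with H4, was at 195, 257 and 219 CPM in WT and 145, 143 and 147 in KO (log2 -0.63 ± 0.10, adjusted p = 0.0063). Hat1, which acetylates new H4, fell by 0.59 ± 0.10 (adjusted p = 0.0062), Atrx, a remodeller that works with the H3.3 chaperone Daxx, by 0.43 ± 0.07 (adjusted p = 0.0066), and Anp32e, a chaperone of H2A.Z, by 0.46 ± 0.08 (adjusted p = 0.0088). The 17 falls became 10 without WT_344, 7 without KO_339 and 9 without KO_340. In these fits 20.4%, 14.5% and 20.6% of all genes were called in either direction.

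Variant histone genes, whose messenger RNAs are made outside S phase as well, were mixed. Their messenger RNAs carry tails, although H2afx is known to make transcripts with either kind of end. Of 14 tested, 5 rose and 2 fell, with a median of 0.50, where 16% of all genes were called higher and 19.9% lower. The rises of H1fx, H2afy2 and H2afy3 were at low levels. Their means were 0.54, 1.14 and 1.17 CPM in WT and 1.39, 1.81 and 1.98 in KO. The summed list was at 2961, 2915 and 3065 CPM in WT and 2791, 2762 and 2440 in KO, a ratio of 0.89. H3f3b, the gene with the highest level, did not pass (log2 -0.24 ± 0.11, adjusted p = 0.13). H3f3a, a source of H3.3, was at 220, 242 and 218 CPM in WT and 292, 296 and 263 in KO (log2 0.32 ± 0.08, adjusted p = 0.022). H2afj rose by 0.53 ± 0.14 (adjusted p = 0.023). H2afy, which encodes macroH2A, was at 698, 883 and 828 CPM in WT and 525, 543 and 460 in KO (log2 -0.66 ± 0.12, adjusted p = 0.0076), and the centromeric Cenpa fell by 0.31 ± 0.07 (adjusted p = 0.016). The call of H3f3a was lost without WT_344, KO_339 or KO_340, that of H2afj without WT_343, KO_339 or KO_340, and that of Cenpa without WT_344 or any KO library. With upper-quartile factors or library totals the call of Cenpa was lost too. The 5 rises became 3 without WT_343 or WT_344, 2 without KO_345 and 0 without KO_339 or KO_340. The 2 falls became 1 without WT_344 or any KO library. Of all genes, 25.8% and 20.4% were called in either direction without WT_343 and WT_344. That share was 14.5%, 20.6% and 18.6% without KO_339, KO_340 and KO_345. The 4 lists share the libraries of the histone genes, and differences between lists were not tested. Slbp is in both the histone messenger RNA list and the S phase list.

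**Figure D5:**
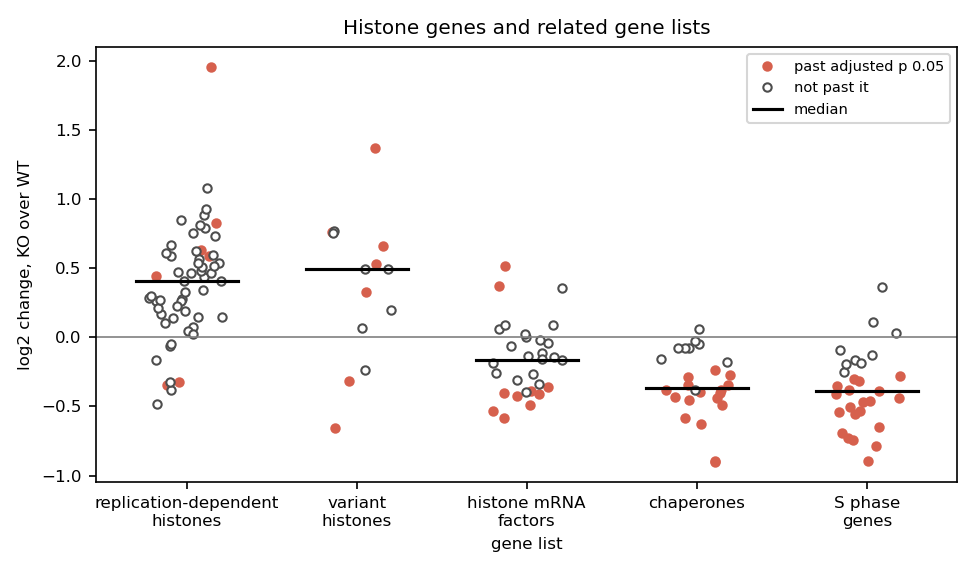
Fitted log2 change of each tested gene (y axis) in the replication-dependent histones and 4 related lists, with filled points past an adjusted p of 0.05 and a bar at the median. Medians are 0.41, 0.50, -0.16, -0.36 and -0.39 from left to right.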

How the data were processed

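Messenger RNA-seq libraries of 6 mice were compared. The deposited table holds raw read counts per gene symbol, with no normalization by the authors. Per the labels' protocols, libraries came from TRIzol RNA of individual mice with a strand-specific TruSeq kit and reads of 75 bases. Tools named in the submitters' processing notes, with no version, are HTSeq, STAR, Trimmomatic and FastQC, and the build is mm10. Annotation, strand setting and treatment of reads with several positions were not given in the sources used here. No column belonged to other samples (0).

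The gene test was that of edgeR 4.0.16 (R 4.3.3, filterByExpr with minimum count 10 and minimum total count 15, TMM factors, robust glmQLFit, glmQLFTest), with Benjamini-Hochberg adjustment over 15742 genes and a threshold of 0.05. The fit was tested on simulated data. Levels are CPM on TMM-scaled totals. Alternatives were other scalings and filters, DESeq2 1.42.0, limma-voom (limma 3.58.1), covariates and leaving out each library. Groups came from genotype labels. The series names no batch. Each library is 1 mouse. Members and lists were chosen with earlier results of these data known. Named genes are the called members, per class the 3 with the highest mean CPM and the 2 with the largest change, tested Hist3 and Hist4 members, up to 4 genes per list with the smallest adjusted p, and Ints11 and Slbp. Genes in pairs, overlaps or untested, the RNAs without a tail, H2afx, H1fx, H2afy2, H2afy3 and H3f3b were chosen after their values were seen. Positions, models and overlaps are from GENCODE M21 (GRCm38, the assembly of mm10), promoters from RefSeq.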

Additional observations from a re-analysis of the deposited data

How the results depend on the processing

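Upper-quartile factors and library totals called 10 of 57 histone genes higher and 0 lower, against 5 and 2 with TMM. They called 34.2% and 34.1% of all genes in either direction, against 35.9%. Under these the median log2 change of all genes moved from 0.01 to 0.15 and 0.11, and 64.2% and 58.8% of all calls were higher in KO, against 44.5%. DESeq2 called 13 of 61 higher, the sex covariate 2 of 57, and the neutrophil and tail-less RNA covariates 0 of 57. In these fits 33.7%, 34.4%, 7.97% and 6.56% of all genes were called in either direction. A filter of 1 CPM in 3 libraries called 1 lower, and the tail-less RNA covariate 0 lower. Leaving out 1 library gave 0 to 25 higher and 0 to 3 lower, where 14.5% to 48.7% of all genes were called. The median of H1 was -0.0014 with sex and -0.094 with the neutrophil covariate, and 0.027 to 0.29 with 1 library left out. Medians of H3, H4 and Hist4 were 0.13, 0.20 and 0.059 with the tail-less RNA covariate, and that of Hist3 was -0.61 with the neutrophil covariate. The histone median ranged from 0.12 to 0.55 over the alternatives with all 6 libraries and, over the 57 genes tested with all libraries, from 0.27 to 0.64 over those that left out 1. The median log2 change of H2a and H2b was above 0 in all alternatives run except with the tail-less RNA covariate (-0.10 and -0.04).

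Histone messenger RNA factors had 1 gene higher with DESeq2 size factors, no filter, the sex covariate or the tail-less RNA covariate, and 1 to 2 with 1 library left out. They had 5 lower with upper-quartile factors, 1 with either the neutrophil or the tail-less RNA covariate, and 3 to 15 with 1 library left out. Variant histone genes had 8 higher with upper-quartile factors or library totals and 0 with the neutrophil or tail-less RNA covariate, and 0 to 5 with 1 library left out. They had 1 lower with upper-quartile factors or library totals, 0 with the tail-less RNA covariate and 1 to 2 with 1 library left out. Chaperones had 10 lower with upper-quartile factors, 2 with the neutrophil covariate, 0 with the tail-less RNA covariate and 7 to 17 with 1 library left out. S phase genes had 11 lower with the neutrophil covariate, 10 with the tail-less RNA covariate, 12 to 21 with 1 library left out, and 0 to 1 higher. The cause of these differences was not tested. Over the alternatives, the share of all genes called ran from 6.56% with the tail-less RNA covariate to 48.7% without WT_341. Of the values of named histone genes under the alternatives, 387 kept their side of the threshold, 25 gained a call and 52 lost it, and none that was called reversed. No paired analysis was possible because no mouse number in the labels occurs in more than one genotype. The filter on low counts left out the 4 members with at most 24 counts in any library.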
